A study of Mus musculus with 28 samples.

Results

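The mouse IFIT family (interferon-induced proteins with tetratricopeptide repeats) was followed through a co-culture study as 6 genes, Ifit1, Ifit2, Ifit3, Ifit3b, Ifit1bl1 and Ifit1bl2, taken by symbol from the 55536 genes counted in every library. The 28 poly(A) RNA libraries came from 3 mouse lines labelled wild type: EO771 (breast cancer), C2C12 (labelled myotubes, the fused cells of muscle) and MLg (lung fibroblasts). They formed 7 groups of 4: EO771 co-cultured with C2C12, EO771 co-cultured with MLg, EO771 alone, C2C12 co-cultured with EO771, C2C12 alone, MLg co-cultured with EO771, and MLg alone. All were grown in DMEM with serum and antibiotics, and the labels name no drug or allele, nor the length of co-culture or the way the lines were parted afterwards. Replicates keep the names of the labels (R3-1 and so on). Nothing states that they are separate cultures, so a p-value here reflects the variation among these libraries, part of which may be technical.

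IFIT proteins are cytoplasmic RNA-binding proteins that form part of the antiviral state. Interferons of type I bind a receptor (Ifnar1 and Ifnar2), the kinases Jak1 and Tyk2 activate Stat2, and a complex that holds Stat2 and Irf9 binds interferon-stimulated response elements. Some IFIT genes can also be switched on by interferon regulatory factors such as Irf3 without interferon. Ifit1 binds viral RNA whose cap lacks ribose methylation, Ifit2 binds RNA and limits virus spread in mouse brain, and human IFIT3 stabilizes IFIT1. Ifit3b is a close copy of Ifit3. Ifit1bl1 and Ifit1bl2 are named for their likeness to Ifit1b, and their roles are left out here.

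All 6 genes lay in 1 cluster of 99.3 kb on mouse chromosome 19 (GENCODE M21 annotation of GRCm38, coordinates counted from 1). Ifit2 (chr19:34550694-34576419), Ifit3 (chr19:34583531-34588731), Ifit3b (chr19:34607970-34613401) and Ifit1 (chr19:34640871-34650009) are on the plus strand. Ifit1bl1 (chr19:34592891-34601956) and Ifit1bl2 (chr19:34617049-34640743) are on the minus strand. Ifit1bl2 and Ifit1 start back to back, and a pseudogene lies inside the span of Ifit1bl2.

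**Figure D1:**
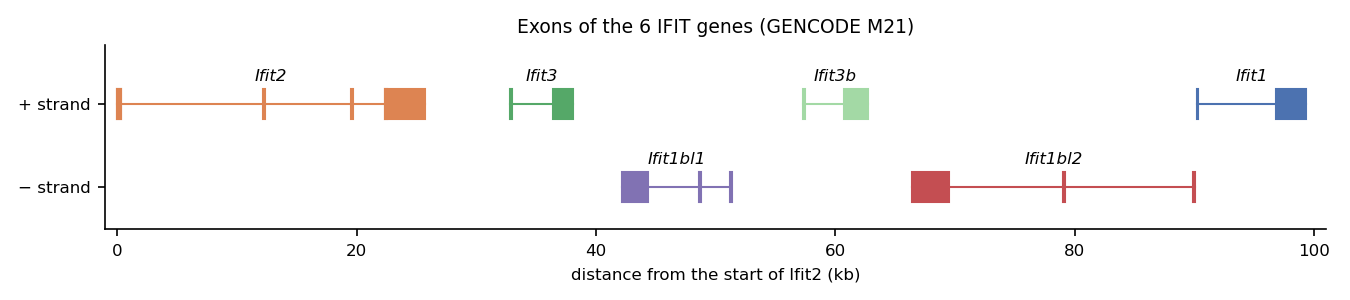
Exons (boxes) and introns (lines) of the 6 IFIT genes by distance from the start of Ifit2 in kb, plus strand above and minus strand below. Ifit1 and Ifit1bl2 start next to each other near the right end of the 99.3 kb cluster.

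The start regions are shown because the family is known for interferon-driven transcription and because members that moved together can be compared letter by letter. Windows from 250 bases before to 50 bases after each start (RefSeq, GRCm38.p6) were searched on both strands for GAAANNGAAA, a pair of GAAA blocks 2 bases apart, as in interferon response elements. The motif was present in 6 of 9 IFIT windows (2 of them of Ifit1bl1, of which 1 is shown). It was present in 3.44% of the 32851 windows of the table, and 0.225% of those held 2 or more matches. Capitals mark the blocks, which read TTTC on the opposite strand. Each stretch runs 5′ to 3′ on the gene's own strand, from 20 bases before the first match to 20 bases after the last, where the window allowed.
Ifit1, chr19:34640765-34640833, plus strand: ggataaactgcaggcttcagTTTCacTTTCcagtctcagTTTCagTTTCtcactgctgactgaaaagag
Ifit1bl2, chr19:34640765-34640833, minus strand: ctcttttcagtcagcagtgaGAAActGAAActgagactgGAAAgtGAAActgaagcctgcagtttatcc
Ifit3, chr19:34583353-34583436, plus strand: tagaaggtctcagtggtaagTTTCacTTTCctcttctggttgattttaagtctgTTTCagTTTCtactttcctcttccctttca
Ifit3b, chr19:34607749-34607832, plus strand: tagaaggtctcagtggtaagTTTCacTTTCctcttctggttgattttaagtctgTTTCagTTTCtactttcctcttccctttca
Ifit1bl1, chr19:34602043-34602092, minus strand: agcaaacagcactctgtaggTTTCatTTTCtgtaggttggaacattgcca
The pair of matches before Ifit1 and the pair before Ifit1bl2 are the same DNA, read from either side. The 84 bases shown for Ifit3 and Ifit3b are identical. Neither of the Ifit2 windows held the motif in these letters, nor did the second window of Ifit1bl2. A match is a description of the letters and not a tested site.

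The close copies limit what a count can tell. Of the 50-base windows in Ifit3 transcripts, 51.2% also occur in Ifit3b transcripts, and 31.7% of the 100-base windows do. For Ifit3b, 45.0% of 50-base and 27.4% of 100-base windows occur in another gene, nearly always Ifit3. Ifit1 shared 7.13% of its 50-base windows, mostly with Ifit1bl2, and Ifit2 shared none. The sources used here give neither read length nor the handling of reads with several matches. The split between Ifit3 and Ifit3b is therefore uncertain, and a few reads of Ifit1bl1 and Ifit1bl2 could stem from Ifit1 or from each other.

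Library totals ran from 27.6 M to 96.5 M counts, levels are given in CPM (counts per M counts of the library), and a count of 0 allows up to 3 counts, 0.0311 to 0.109 CPM depending on the library. Odd counts were missing from 5 co-cultured libraries, namely R3-1, R5-1 and R6-1 of EO771 with C2C12 and R5-1 and R6-1 of MLg with EO771. In the other 23 libraries 41.6% to 44.8% of nonzero counts were odd. Each co-cultured library also held RNA typical of its partner line. Genes high in the partner (at least 20 CPM) and at most 0.05 CPM in the line alone were found at a median of 0.941% ± 0.412 of the partner's level in EO771 with C2C12 (SD, n = 4, 125 genes) and 1.49% ± 0.376 in EO771 with MLg (125 genes). The same measure was 4.33% ± 0.952 in C2C12 with EO771 (27 genes) and 8.30% ± 3.31 in MLg with EO771 (31 genes). In bulk RNA, carried-over cells, carried-over RNA and fewer cells of a type or less RNA per cell cannot be told apart. The 7 epithelial markers summed to 92.3 to 97.7 CPM in EO771 alone, with Krt19 and Cldn3 at 0, and to at most 5.06 CPM in the other lines alone. The 9 myotube markers summed to 543 to 2305 CPM in C2C12 with EO771 and 296 to 3402 CPM in C2C12 alone. Fibroblast markers did not separate MLg from C2C12 (23756 to 30293 CPM summed in MLg alone, 25123 to 29616 CPM in C2C12 alone). The 7 leukocyte markers summed to at most 19.3 CPM in any library, with their defining gene Ptprc at 0.161 CPM or less, and the 3 endothelial markers to at most 7.40 CPM.

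**Figure D2:**
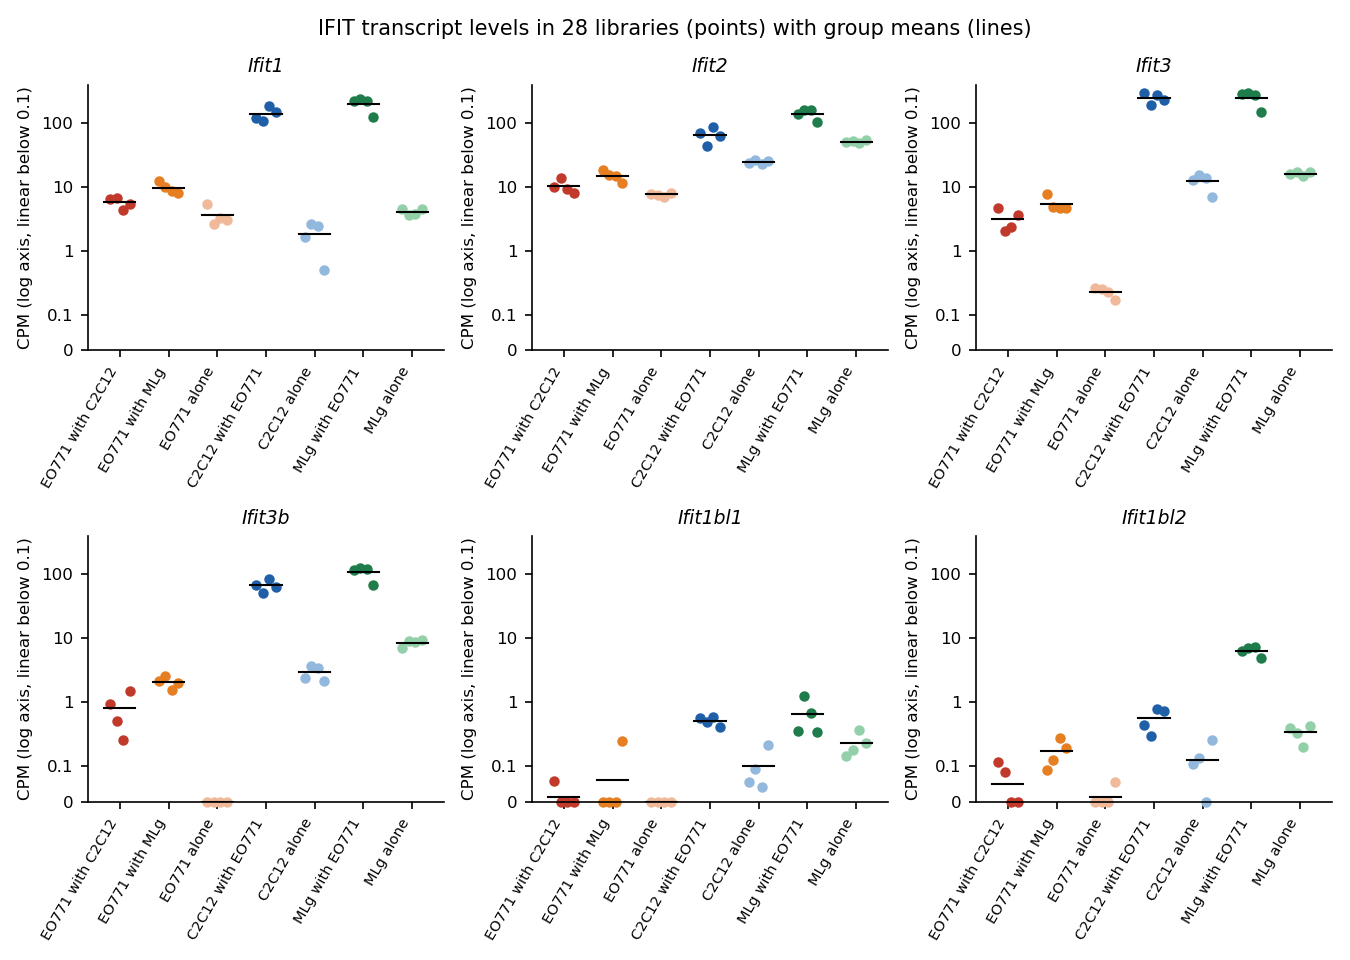
CPM of each IFIT gene in the 28 libraries (points, log axis that is linear below 0.1 CPM) with the mean of each group of 4 (lines). In both partner lines co-cultured with EO771, Ifit1, Ifit2, Ifit3 and Ifit3b lie above every library of the same line alone, and Ifit3b is at 0 in all 4 libraries of EO771 alone.

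In C2C12 myotubes co-cultured with EO771, 5 of the 6 IFIT genes were called higher than in C2C12 alone, against 2.68% of the 16625 genes tested that were called in either direction and 2.58% called higher (edgeR quasi-likelihood test, adjusted p under 0.05 over all genes tested). With libraries of the same R number paired, 4 were called, without Ifit1bl1. Ifit3 was the most abundant member per kb of transcript, and Ifit1 had the largest fold change of the family. Ifit2 had the smallest fold change of the called members. Epithelial markers summed to 5.56 to 12.6 CPM in C2C12 with EO771 and 0.489 to 5.06 CPM in C2C12 alone. Summed over the family, the level was 520 ± 97.9 CPM in C2C12 with EO771 and 41.7 ± 5.14 CPM in C2C12 alone (SD, n = 4 each).

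Ifit1, the sensor of incompletely capped RNA, had 121, 108, 183 and 147 CPM in C2C12 with EO771 (replicates R3-1, R5-1, R5-2 and R6-1), against 1.66, 2.65, 2.40 and 0.493 CPM in C2C12 alone (R2-1, R3-1, R3-2 and R5-1). All co-cultured libraries were far above all libraries alone, among which R5-1 was low. The log2 fold change was 6.19 (SE 0.49, 73.1-fold, edgeR adjusted p 0.000157). Ifit2 had 70.4, 44.1, 86.3 and 63.1 CPM in C2C12 with EO771, against 23.9, 26.0, 22.7 and 25.2 CPM in C2C12 alone. The groups did not overlap, and the co-cultured libraries spread more widely than those alone. Its log2 fold change was 1.38 (SE 0.18, edgeR adjusted p 0.00275).

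Ifit3 reached 292, 192, 272 and 228 CPM in C2C12 with EO771, against 13.0, 15.1, 14.0 and 6.93 CPM in C2C12 alone, where R5-1 was again the lowest. The log2 fold change was 4.27 (SE 0.28, 19.2-fold, edgeR adjusted p 6.21e-05). Ifit3b, its close copy, had 69.0, 50.4, 85.2 and 64.3 CPM in C2C12 with EO771, against 2.39, 3.74, 3.49 and 2.12 CPM in C2C12 alone. The groups of both genes were clearly apart. Ifit3b rose by 4.45 on the log2 scale (SE 0.26, edgeR adjusted p 3.27e-05), and the ratio of Ifit3 to Ifit3b per kb was 4.24 ± 0.507 in C2C12 with EO771 and 4.80 ± 1.04 in C2C12 alone (SD, n = 4 each).

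The minus-strand members stayed under 1 CPM in this line. Ifit1bl1 had 0.575, 0.494, 0.588 and 0.406 CPM in C2C12 with EO771 (18 to 37 counts per library), against 0.0547, 0.0933, 0.0419 and 0.217 CPM in C2C12 alone (3 to 15 counts). The groups did not overlap, but the call was narrow: the log2 fold change was 2.27 (SE 0.50, edgeR adjusted p 0.0464). It was lost when any 1 library other than C2C12 alone R5-1 was left out (edgeR adjusted p 0.0834 to 0.152), and without C2C12 alone R5-1 the adjusted p was 0.0119. It was also lost with no filter on low counts (0.0518) and with all 28 libraries in 1 fit (0.0907). With the R number as a block, which paired the C2C12 libraries, it was 2.09 (SE 0.57, edgeR adjusted p 0.147), so 4 members were then called. Ifit1bl2 had 0.437, 0.302, 0.794 and 0.722 CPM in C2C12 with EO771, against 0.109, 0.135, 0 and 0.261 CPM in C2C12 alone, and its log2 difference of 2.11 (SE 0.74) was not called (edgeR adjusted p 0.284), except with all 28 libraries in 1 fit (0.0215).

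In MLg lung fibroblasts co-cultured with EO771, 5 of the 6 members were called higher than in MLg alone, where 14.7% of 16823 genes were called in either direction and 9.89% higher. Ifit1, Ifit3 and Ifit3b rose most of the abundant members, and Ifit1bl2, barely counted in MLg alone, also rose. The family sum was 704 ± 175 CPM in MLg with EO771 and 80.5 ± 3.70 CPM in MLg alone (SD, n = 4 each). Replicate R7-1 of the co-cultured group was its lowest library for all 6 members. Epithelial markers summed to 4.68 to 18.4 CPM in MLg with EO771 and 0.589 to 0.891 CPM in MLg alone.

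Ifit1 had 217, 238, 218 and 122 CPM in MLg with EO771 (R5-1, R6-1, R6-2 and R7-1), against 4.46, 3.63, 3.81 and 4.57 CPM in MLg alone (R3-2, R5-2, R6-1 and R6-2). Even the low library R7-1 was far above the group alone. The log2 fold change was 5.62 (SE 0.22, 49.2-fold, edgeR adjusted p 3.09e-08). Ifit2 had 139, 158, 158 and 102 CPM in MLg with EO771, against 49.9, 51.8, 49.2 and 53.9 CPM in MLg alone. It showed the smallest fold change of the called members, 1.47 on the log2 scale (SE 0.13, 2.77-fold, edgeR adjusted p 1.11e-05), with no overlap.

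Ifit3 had 288, 295, 270 and 147 CPM in MLg with EO771, against 15.9, 16.9, 14.8 and 16.8 CPM in MLg alone, a log2 fold change of 3.99 (SE 0.20, edgeR adjusted p 1.59e-07). Ifit3b had 118, 128, 120 and 68.1 CPM in MLg with EO771, against 7.06, 8.99, 8.88 and 9.36 CPM in MLg alone, a log2 fold change of 3.69 (SE 0.19, edgeR adjusted p 1.81e-07). Both genes were tightly grouped in the libraries alone, and in the co-cultured libraries R7-1 stood apart below the other three.

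Ifit1bl2 had 6.27, 7.16, 7.43 and 4.86 CPM in MLg with EO771 (212 to 412 counts), against 0.402, 0.332, 0.201 and 0.421 CPM in MLg alone (14 to 28 counts). The groups were well apart and the log2 fold change was 4.27 (SE 0.27, 19.2-fold, edgeR adjusted p 7.21e-07). Its neighbour on the opposite strand, Ifit1, was 38.7 ± 5.40 times as high per kb in MLg with EO771 and 16.4 ± 5.06 times in MLg alone (SD, n = 4 each). Ifit1bl1 had 0.355, 1.25, 0.676 and 0.342 CPM in MLg with EO771, against 0.143, 0.181, 0.374 and 0.227 CPM in MLg alone. These groups overlapped, and the log2 difference of 1.55 (SE 0.49) narrowly missed the call (edgeR adjusted p 0.0546), which it passed without MLg with EO771 R5-1 (0.0483) or R7-1 (0.0319) and with DESeq2 (adjusted p 0.0300), and with no filter on low counts (0.0267).

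**Figure D3:**
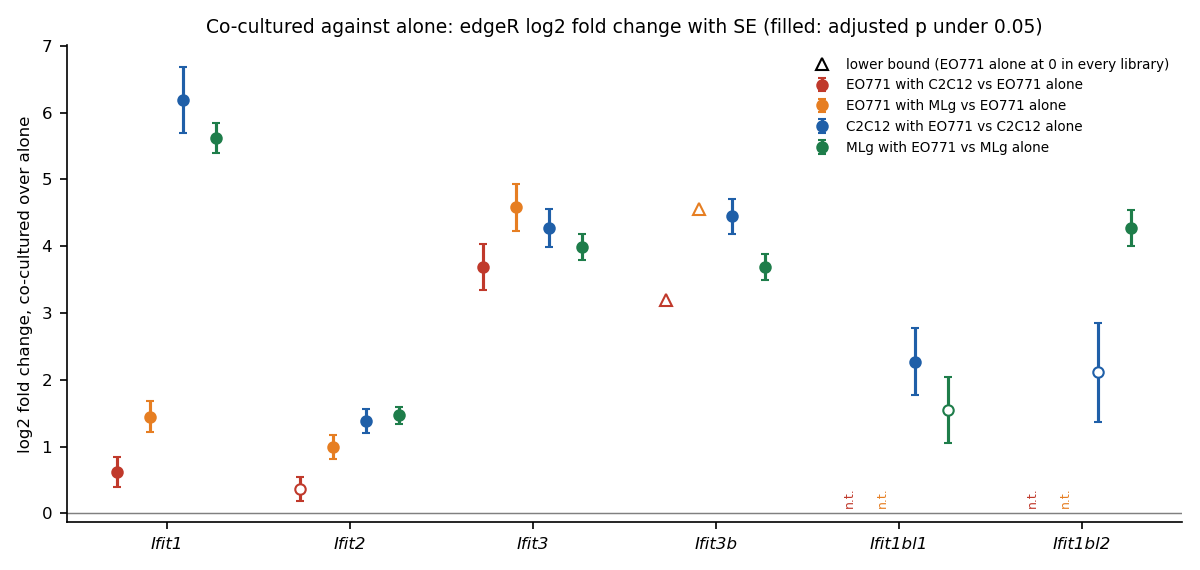
Log2 fold change of each member, co-cultured over alone, with SE as bars; filled points passed an adjusted p under 0.05, open points did not, n.t. marks genes not tested in EO771, and triangles are lower bounds for Ifit3b, which was at 0 in EO771 alone and passed the test with both partners. Ifit1 shows the widest gap between the partner lines (6.19 and 5.62) and EO771 (0.62 and 1.45).

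The responses of the partner lines to EO771 were set against each other in 1 fit with an interaction term, in which 1.84% of 18647 genes were called. None of the 6 members was called (edgeR quasi-likelihood test), 2 had an unadjusted p under 0.05, and DESeq2 called 1. The MLg response minus the C2C12 response was -0.57 on the log2 scale for Ifit1 (95% interval -1.58 to 0.44), 0.08 for Ifit2 (-0.44 to 0.59) and -0.28 for Ifit3 (-1.01 to 0.45). For Ifit3b it was -0.76 (-1.44 to -0.07, unadjusted p 0.0321, edgeR adjusted p 0.325). These intervals do not show that the responses were equal. Ifit1bl2 had the widest difference, 2.14 (0.60 to 3.69, unadjusted p 0.00957, edgeR adjusted p 0.187), and DESeq2 called it at 2.15 (adjusted p 0.0143), as did edgeR without C2C12 alone R3-2 (adjusted p 0.0161). Ifit1bl1 stood at -0.73 (-2.27 to 0.81).

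Summed over the family, EO771 held less IFIT RNA than the partner lines in the same kind of culture. The sum was 20.1 ± 3.22 CPM in EO771 with C2C12 and 32.5 ± 6.24 CPM in EO771 with MLg (SD, n = 4 each). In EO771 alone it was 11.4 ± 1.47 CPM. The range of EO771 with MLg (26.5 to 41.0 CPM) overlapped that of C2C12 alone (35.2 to 47.7 CPM). Ifit1 was an exception in the lines alone. Its means in both co-cultured EO771 groups were above those of C2C12 alone and MLg alone. In EO771 with MLg, all 4 tested members were called higher than in EO771 alone, against 9.59% of 15794 genes called in either direction and 5.99% called higher. In EO771 with C2C12, 3 of the 4 were called higher, against 33.0% of the same 15794 genes called and 18.7% called higher, so a call in that comparison was common. Ifit1bl1 and Ifit1bl2 were too low for the filter in this line and were not tested. Both comparisons use the same 4 libraries of EO771 alone. Myotube markers summed to 70.3 to 264 CPM in EO771 with C2C12 and 6.31 to 8.71 CPM in EO771 alone, and fibroblast markers to 217 to 447 CPM in EO771 with C2C12, 294 to 489 CPM in EO771 with MLg and 92.0 to 124 CPM in EO771 alone. Epithelial markers, those of the EO771 line itself, summed to 181 to 259 CPM in EO771 with C2C12, 73.7 to 129 CPM in EO771 with MLg and 92.3 to 97.7 CPM in EO771 alone. Their part in the results was not tested beyond the subtraction of partner counts.

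Ifit1 had 6.58, 6.71, 4.38 and 5.39 CPM in EO771 with C2C12 (R3-1, R5-1, R5-2 and R6-1) and 12.2, 9.83, 8.52 and 7.99 CPM in EO771 with MLg (R5-1, R6-1, R6-2 and R7-1), against 5.43, 2.62, 3.28 and 3.00 CPM in EO771 alone (R3-1, R3-2, R5-1 and R6-2). Libraries with MLg were above all libraries alone. Those with C2C12 overlapped the group alone only because its R3-1, at 5.43 CPM, stood above its other three libraries. The log2 fold change was 1.45 with MLg (SE 0.23, edgeR adjusted p 0.000200) and 0.62 with C2C12 (SE 0.23, edgeR adjusted p 0.0448). The call with C2C12 held without EO771 alone R3-1, EO771 with C2C12 R5-2, EO771 with MLg R5-1 or R7-1, and was lost without any 1 of the other 8 EO771 libraries (edgeR adjusted p 0.0525 to 0.140) and without the even-count libraries (edgeR adjusted p 0.801, 1 library of EO771 with C2C12 left). It was also lost in a fit of only these groups (0.0544), with the even counts halved (0.0510) and with all 28 libraries in 1 fit (0.126).

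Ifit2 had 10.1, 13.7, 9.23 and 8.15 CPM in EO771 with C2C12 and 18.7, 15.4, 14.6 and 11.4 CPM in EO771 with MLg, against 7.86, 7.54, 6.96 and 8.06 CPM in EO771 alone. Both co-cultured groups lay above the group alone, with R6-1 of EO771 with C2C12 only just. The log2 fold change was 1.00 with MLg (SE 0.18, edgeR adjusted p 0.000651), whereas the 0.37 with C2C12 (SE 0.18, 95% interval -0.00 to 0.74) was not called (edgeR adjusted p 0.122).

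Ifit3 had 4.66, 2.02, 2.39 and 3.59 CPM in EO771 with C2C12 and 7.80, 4.86, 4.66 and 4.63 CPM in EO771 with MLg, against 0.264, 0.257, 0.228 and 0.168 CPM in EO771 alone (6 to 10 counts per library). Neither co-cultured group came near the libraries alone. The log2 fold change was 3.69 with C2C12 (SE 0.34, 12.9-fold, edgeR adjusted p 3.51e-07) and 4.58 with MLg (SE 0.35, 23.9-fold, edgeR adjusted p 3.69e-08).

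Ifit3b had 0.932, 0.506, 0.254 and 1.52 CPM in EO771 with C2C12 and 2.14, 2.54, 1.55 and 2.03 CPM in EO771 with MLg, and no count in any library of EO771 alone. Set against the 0.0880 CPM that 3 counts make in the smallest library of EO771 alone, Ifit3b was at least 9.12-fold higher with C2C12 (edgeR adjusted p 2.34e-05) and at least 23.5-fold higher with MLg (edgeR adjusted p 3.68e-06). The minus-strand members were at or near 0 in EO771: Ifit1bl1 had 2 counts in EO771 with C2C12, 10 in EO771 with MLg and 0 in EO771 alone, summed over 4 libraries, and Ifit1bl2 had 8, 27 and 2.

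Set against each other, EO771 with C2C12 was lower than EO771 with MLg for all 4 tested members, where 27.7% of 15794 genes were called and 12.7% called lower. The log2 difference was -0.83 for Ifit1 (SE 0.22, edgeR adjusted p 0.00955), -0.63 for Ifit2 (SE 0.17, edgeR adjusted p 0.0116), -0.89 for Ifit3 (SE 0.27, edgeR adjusted p 0.0207) and -1.46 for Ifit3b (SE 0.44, edgeR adjusted p 0.0238). Single libraries of the groups overlapped for Ifit2 and Ifit3 and not for Ifit1 and Ifit3b. Without EO771 with C2C12 R5-1, or without R5-2 of that group, the calls of Ifit3 and Ifit3b were lost and 2 members remained called. The call of Ifit3 was also lost without EO771 with MLg R5-1 (edgeR adjusted p 0.0852) and that of Ifit3b without EO771 with MLg R6-1 (0.0562). That of Ifit1 was lost with all 28 libraries in 1 fit (0.0536). Without the even-count libraries, which leaves 1 library of EO771 with C2C12, Ifit3b alone was called.

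To show what partner RNA could supply, each EO771 level was placed beside the level of the same gene in the line it was grown with. Ifit1 averaged 5.76 CPM in EO771 with C2C12, against 140 CPM in C2C12 with EO771, and 9.64 CPM in EO771 with MLg, against 199 CPM in MLg with EO771. Ifit2 averaged 10.3 CPM in EO771 with C2C12, against 66.0 CPM in the C2C12 partner, and 15.0 CPM in EO771 with MLg, against 139 CPM in the MLg partner. Ifit3 averaged 3.17 CPM in EO771 with C2C12, against 246 CPM in its partner, and 5.49 CPM in EO771 with MLg, against 250 CPM in its partner. Ifit3b averaged 0.803 CPM in EO771 with C2C12, against 67.2 CPM in its partner, and 2.07 CPM in EO771 with MLg, against 109 CPM in its partner.

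The EO771 excess over EO771 alone can be read as a percentage of these partner levels. With C2C12, the excess was 1.19% ± 0.488 of the partner's level for Ifit3 and 1.19% ± 0.824 for Ifit3b, 1.56% ± 0.786 for Ifit1 and 4.10% ± 3.65 for Ifit2 (SD over the 4 EO771 libraries). The 125 genes specific to C2C12 had 25th and 75th percentiles of 0.750% and 1.23% and 10th and 90th percentiles of 0.624% and 2.84% in the same libraries. Ifit3 and Ifit3b lay between the 25th and 75th, Ifit1 between the 75th and 90th, and Ifit2 past the 90th percentile, where single genes reached 11.0%. With MLg, the excess was 1.90% ± 0.376 for Ifit3b, 2.10% ± 0.618 for Ifit3, 3.05% ± 0.951 for Ifit1 and 5.34% ± 2.18 for Ifit2. The 125 genes specific to MLg had 25th and 75th percentiles of 1.35% and 1.72%, a 90th percentile of 2.03% and a highest value of 2.80%. Ifit3b lay between the 75th and the 90th percentile there, Ifit3 just past that percentile, and Ifit1 and Ifit2 above all 125 genes.

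**Figure D4:**
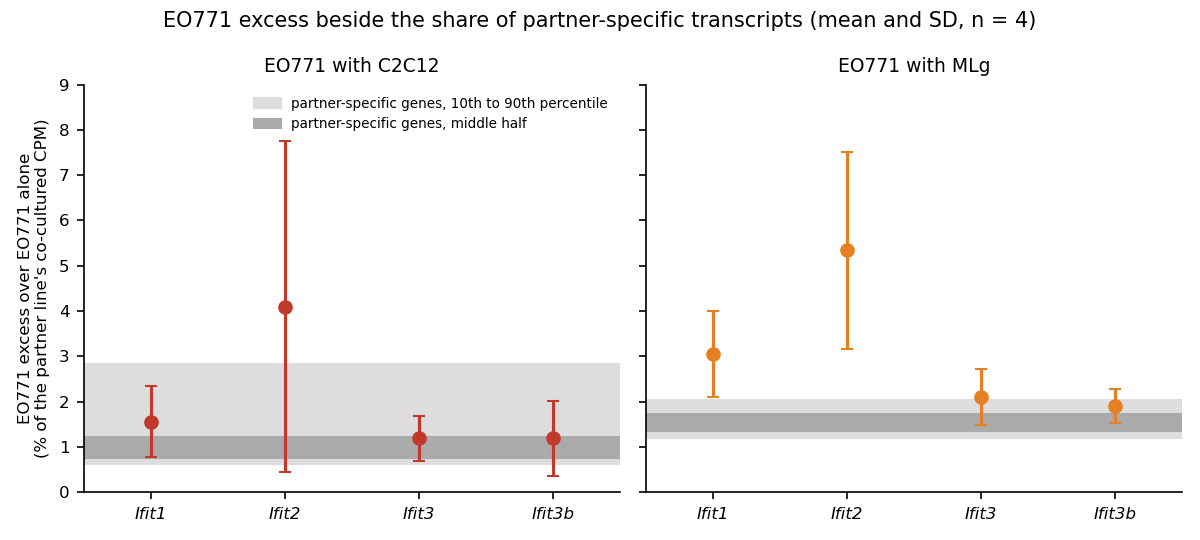
Excess of each member in co-cultured EO771 over EO771 alone, as a percentage of the partner line's co-cultured CPM (points, mean of 4 libraries, bars SD), beside the same percentage for 125 partner-specific genes (grey bands). Ifit3 and Ifit3b fall in or close to the bands, and Ifit2 lies above them with both partners, with the wider SD with C2C12.

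Subtracting partner RNA from the counts at the median share of each library changed the EO771 calls. At 0.941%, the C2C12 partner would supply 2.32 of the 3.17 CPM of Ifit3 in EO771 with C2C12, 0.632 of the 0.803 CPM of Ifit3b, 1.31 of the 5.76 CPM of Ifit1 and 0.621 of the 10.3 CPM of Ifit2. After that subtraction edgeR called none of the 3 members still tested with C2C12 (1 had an unadjusted p under 0.05): Ifit1 differed by 0.27 (SE 0.27, edgeR adjusted p 0.488) and Ifit3 by 1.85 (SE 0.83, edgeR adjusted p 0.103) on the log2 scale, and Ifit3b was too low to be tested. With MLg, 3 members stayed called after it, and Ifit3b again was not tested. Ifit1 then differed by 0.96 on the log2 scale (SE 0.27, edgeR adjusted p 0.0430), against 1.45 before subtraction. Ifit2 differed by 0.83 (SE 0.20, edgeR adjusted p 0.0179), against 1.00 before it. Ifit3 differed by 2.98 (SE 0.82, edgeR adjusted p 0.0397), against 4.58 before it. When the partner library of the same name was used in place of the partner mean, 2 members were called with C2C12 and 4 with MLg, and at the share from summed counts the numbers were 0 and 1. The 2 with C2C12 were Ifit3 (log2 difference 1.76, SE 0.48, edgeR adjusted p 0.0105) and Ifit3b (edgeR adjusted p 0.00895). Calls over all genes fell as well with MLg, from 1515 to 874 at the median share. They fell to 874 with the partner of the same name and to 839 at the summed share. In the difference between the co-cultured EO771 groups, edgeR called 0 members at the median share (2 with an unadjusted p under 0.05), 3 with the partner of the same name and 1 at the summed share. The last 2 forms of subtraction were chosen after the data were seen. How much of the EO771 signal is partner RNA was not tested otherwise.

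At the share found for EO771-specific genes, EO771 RNA would make up little of the IFIT levels in the partner lines. Transfer itself was not tested. At 4.33%, EO771 would supply 0.250 of the 140 CPM of Ifit1 and 0.137 of the 246 CPM of Ifit3 in C2C12 with EO771. In MLg with EO771, 8.30% of the EO771 level is 0.800 of 199 CPM for Ifit1 and 1.25 of 139 CPM for Ifit2. After subtraction at the median share, 4 members were still called in C2C12 (Ifit1bl1 was lost, edgeR adjusted p 0.107) and 5 in MLg. Calls over all genes fell from 445 to 124 in C2C12 and from 2472 to 781 in MLg.

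The lines alone already differed in IFIT levels. EO771 alone was lower than C2C12 alone for 5 of 6 members, where 78.2% of 18755 genes were called (42.0% lower), and lower than MLg alone for 5 of 6, where 77.6% were called (40.8% lower). These shares leave little to read from a call, and the sizes say more. Ifit2 averaged 7.61 ± 0.478 CPM in EO771 alone, against 24.4 ± 1.42 CPM in C2C12 alone and 51.2 ± 2.09 CPM in MLg alone (SD, n = 4 each). Ifit3 averaged 0.229 ± 0.0434 CPM in EO771 alone, against 12.3 ± 3.66 CPM in C2C12 alone and 16.1 ± 0.949 CPM in MLg alone, and its log2 difference was -5.89 from C2C12 alone (edgeR adjusted p 2.71e-10) and -6.12 from MLg alone (2.24e-10). Ifit3b was at least 33.3-fold lower than in C2C12 alone and at least 97.4-fold lower than in MLg alone. Ifit1bl2 differed by -3.14 from C2C12 alone (SE 1.15, edgeR adjusted p 0.0227), a call lost without EO771 alone R3-1, R3-2 or R5-1 or without C2C12 alone R5-1 (edgeR adjusted p up to 0.0623).

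Ifit1 was the exception. It averaged 3.58 ± 1.26 CPM in EO771 alone, 4.12 ± 0.467 CPM in MLg alone and 1.80 ± 0.969 CPM in C2C12 alone (SD, n = 4 each). The log2 difference of EO771 alone from C2C12 alone was 0.81 (95% interval -0.07 to 1.69, edgeR adjusted p 0.0846) and from MLg alone -0.20 (-1.07 to 0.67, edgeR adjusted p 0.662), so neither was called. The difference from C2C12 alone passed without C2C12 alone R3-1 (edgeR adjusted p 0.0349), with all 28 libraries in 1 fit (0.0312) and with the R number as a block (0.0479). MLg alone was called higher than C2C12 alone for Ifit1, Ifit2 and Ifit3b, where 61.9% of 18755 genes were called (30.9% higher). The log2 differences were 1.01 (SE 0.41, edgeR adjusted p 0.0440), 0.91 (SE 0.08, edgeR adjusted p 4.31e-07) and 1.37 (SE 0.24, edgeR adjusted p 0.000506). The Ifit1 call was lost without any 1 of the 4 libraries of MLg alone, without C2C12 alone R2-1, and without EO771 alone R3-2, R5-1 or R6-2, which share the fit (edgeR adjusted p 0.0502 to 0.0881), and in a fit of only these lines (0.0649). Ifit1bl1 was called without C2C12 alone R5-1 only (edgeR adjusted p 0.0347). Ifit3 did not differ between these lines beyond its spread (0.22, 95% interval -0.23 to 0.67).

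Over the 7 groups, the order of means was not the same for every member. For Ifit1 it ran MLg with EO771, C2C12 with EO771, EO771 with MLg, EO771 with C2C12, MLg alone, EO771 alone and C2C12 alone. The ranges of neighbours overlapped between MLg and C2C12 with EO771 and among the last 4 groups. For Ifit2, MLg alone (51.2 CPM) and C2C12 alone (24.4 CPM) came before both co-cultured EO771 groups, and the range of C2C12 with EO771 overlapped that of MLg alone. Ifit3 and Ifit3b also had every partner line, alone or co-cultured, above every EO771 group, although the ranges of MLg alone, C2C12 alone and EO771 with MLg overlapped from 1 to the next for Ifit3, and those of C2C12 alone and EO771 with MLg for Ifit3b. Ifit1bl2 had MLg with EO771 (6.43 CPM) apart from all other groups, whose neighbours overlapped, at 0.564 CPM or less.

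The make-up of the family per kb of transcript differed with the culture. Ifit1 made up 21.5% ± 3.12 of the summed IFIT level per kb in C2C12 with EO771 and 4.15% ± 1.85 in C2C12 alone, and 24.1% ± 0.329 in MLg with EO771 and 5.48% ± 0.622 in MLg alone (SD, n = 4 each). Ifit2 went the other way: 6.79% ± 0.649 in C2C12 with EO771 and 41.3% ± 8.89 in C2C12 alone, and 11.6% ± 1.38 in MLg with EO771 and 46.1% ± 0.502 in MLg alone. Ifit3 was the leading member in C2C12 with EO771 (57.8% ± 4.05) and in MLg with EO771 (46.0% ± 1.71).

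EO771 had another make-up. In EO771 alone, Ifit2 held 57.3% ± 7.04 and Ifit1 38.7% ± 7.32, with 3.88% ± 0.804 left for Ifit3. In EO771 with C2C12, Ifit3 held 25.6% ± 7.39 and Ifit3b 5.58% ± 3.86, and in EO771 with MLg 26.6% ± 2.62 and 8.97% ± 1.95. With partner counts subtracted at the median share, Ifit3 held 9.87% ± 6.86 and Ifit3b 2.71% ± 3.78 in EO771 with C2C12, and 12.1% ± 9.00 and 3.03% ± 2.76 in EO771 with MLg, while the shares of Ifit1 (35.1% and 36.0%) and Ifit2 (51.9% and 47.8%) were larger than before subtraction. The order Ifit2, Ifit1, Ifit3 was the same in all 3 EO771 groups by mean, also after subtraction. The ratio of Ifit1 to Ifit2 per kb was 3.18 ± 0.476 in C2C12 with EO771 and 0.110 ± 0.0590 in C2C12 alone, 2.09 ± 0.239 in MLg with EO771 and 0.119 ± 0.0125 in MLg alone, but 0.841 ± 0.148 in EO771 with C2C12, 0.952 ± 0.0723 in EO771 with MLg and 0.695 ± 0.231 in EO771 alone.

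**Figure D5:**
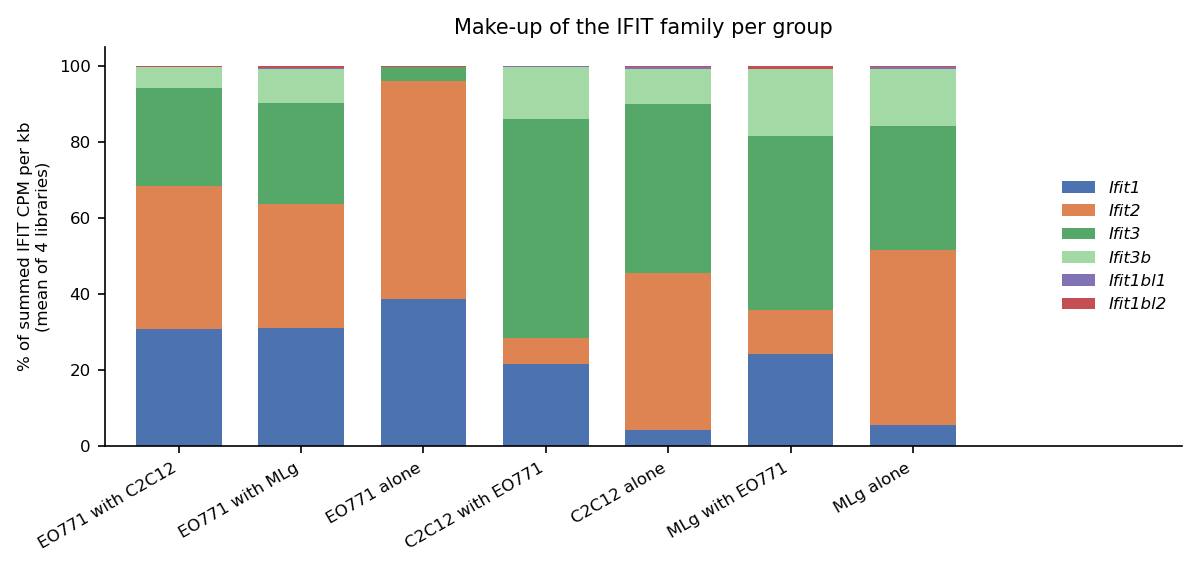
Share of each member in the summed IFIT level (CPM per kb of exon, mean of 4 libraries) in each group. Ifit1 fills 21.5% of the bar of C2C12 with EO771 and 24.1% of that of MLg with EO771, against 4.15% and 5.48% in these lines alone, and Ifit3 and Ifit3b are nearly absent from EO771 alone. Partner counts are not subtracted here, and with them subtracted the Ifit3 share is 9.87% in EO771 with C2C12 and 12.1% in EO771 with MLg.

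The rest of the interferon pathway was counted in 4 lists. In C2C12 with EO771 against C2C12 alone, 22 of 24 other antiviral interferon-stimulated genes were called higher and none lower (median log2 fold change 3.64, against -0.00 over all genes tested). Examples with the highest levels were Ifitm3, a membrane protein that blocks virus entry (694 ± 78.8 CPM in C2C12 with EO771, 363 ± 46.3 CPM in C2C12 alone), Eif2ak2, the kinase PKR (132 ± 39.7 and 51.1 ± 8.11 CPM), and Oasl2, a relative of the oligoadenylate synthetases (means of 112 and 4.79 CPM). Of 9 signal and transcription factors 4 were called higher, among them Stat2 (log2 fold change 1.88), Irf9 (1.81) and Irf7 (4.11). Of 8 RNA and DNA sensors 5 were called higher, among them Ddx58, which encodes RIG-I (1.57), Trim25, the ligase that activates it (1.10), and Zbp1 (3.89). Of 5 interferon and receptor genes tested none was called. Of all 16625 genes tested in this comparison, 2.58% were called higher.

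In MLg with EO771 against MLg alone, all 24 of those other antiviral genes were called higher (median 3.28, against -0.00 over all genes). The highest were Ifitm3 (587 ± 96.7 CPM in MLg with EO771, 246 ± 18.4 CPM in MLg alone), Oasl2 (means of 207 and 23.1 CPM) and Bst2, the virus tether tetherin (179 ± 50.2 and 54.3 ± 4.78 CPM). The factors had 4 of 9 higher (among them Stat2 at 0.92 and Irf9 at 1.30 on the log2 scale), the sensors 7 of 8 (Ddx58 at 0.99, Trim25 at 1.31, and Tmem173, which encodes STING, at 0.58), and the 4 interferon and receptor genes tested 0. Of all 16823 genes tested in this comparison, 9.89% were called higher. Between the partner lines, the MLg response was called smaller for 5 of the 24 antiviral genes, with Oasl2 (-1.32), Ifi44 (-2.36) and Mx1 (-6.58) as the examples of highest level, and, among the factors, for Stat2 (-0.97). Over all genes tested in that difference, 0.778% were called lower. With partner counts subtracted, and also without the even-count libraries, 3 of the 24 antiviral genes and none of the 9 factors were called there, and Ifi44 (edgeR adjusted p 0.0573 and 0.0551) and Stat2 (0.117 and 0.0701) were lost.

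In EO771, more genes of these lists were called higher than lower in both co-cultures. In EO771 with C2C12 against EO771 alone, 17 of 24 antiviral genes were higher and 0 lower (median 0.95, against 0.00 over all genes), as were 6 of 9 factors, 5 of 8 sensors (2 lower) and 1 of 4 receptors. Of all 15794 genes tested there, 18.7% were called higher and 14.3% lower, so a call was common. Only 1 library of EO771 with C2C12 remained without the even-count libraries, which cannot decide these calls. The median over the 24 antiviral genes was then 0.57. After subtraction of partner RNA, 15 of the 23 antiviral genes still tested were called higher. Isg20, an exonuclease, had 48.5 ± 10.4 CPM in EO771 with C2C12 and 13.3 ± 0.845 CPM in EO771 alone, and Ddx58 had 45.3 ± 15.0 and 13.0 ± 2.43 CPM. In EO771 with MLg, 14 of 24 antiviral genes were higher and 0 lower (median 1.05, against 0.01 over all genes), with 3 of 9 factors, 5 of 8 sensors and 2 of 4 receptors, and after subtraction of partner RNA 10 of 23 antiviral genes, 2 of 9 factors, 3 of 7 sensors and 0 of 4 receptors were. Before subtraction, 5.99% of all 15794 genes were called higher with MLg. Isg15, a ubiquitin-like modifier, had 19.9 ± 2.21 CPM in EO771 with MLg and 10.3 ± 1.55 CPM in EO771 alone, and Ddx58 had 33.9 ± 1.72 and 13.0 ± 2.43 CPM. Isg20 was higher in EO771 with C2C12 than in that partner, C2C12 with EO771 (18.2 CPM), whereas each of the 4 tested IFIT members was lower in EO771 than in its partner.

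Between the co-cultured EO771 groups the lists did not move one way. In EO771 with C2C12 against EO771 with MLg, 4 of 24 antiviral genes were higher and 4 lower, beside 15.0% of all 15794 genes called higher and 12.7% called lower, with Isg20 (log2 difference 1.62) and Oas1a (0.84) higher and Bst2 (-0.38) lower. Of the factors, Irf5 (1.75) and Tyk2 (0.44) were higher and Irf9 (-0.38) lower, and the sensors Dhx58 (-0.85) and Zbp1 (-1.72) were lower. The receptor gene Ifnar2 (-0.45, edgeR adjusted p 0.0183) was lower too. After subtraction of partner RNA 4 of 23 antiviral genes were higher and 0 lower. Of the factors 2 of 9 were then higher and 1 lower, and 1 of 7 sensors and 1 of 4 receptors were lower. Omitting the even-count libraries left 1 library of EO771 with C2C12, which cannot decide these calls. The log2 difference was then -0.31 for Ifnar2, 0.42 for Tyk2, 1.67 for Irf5, -0.59 for Irf9, -0.78 for Dhx58 and -2.49 for Zbp1. Its median over the 24 antiviral genes was -0.43. The 4 tested IFIT members were all lower in EO771 with C2C12 before subtraction.

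Interferon genes themselves were barely counted, and the following were picked after their values were seen. Ifnb1, the gene for interferon beta, had 48 counts in the 4 libraries of MLg with EO771 (4 to 22 each, mean 0.295 CPM) and 0 in MLg alone. It had 10 counts in EO771 with C2C12, 22 in EO771 with MLg and 0 in EO771 alone, and 3 in C2C12 with EO771 and 0 in C2C12 alone. Ifng had 35 counts in C2C12 with EO771 and 50 in C2C12 alone, and none in the other groups. No library had a count of Ifna1, Ifna2, Ifnl2 or Ifnl3. Receptor transcripts were present throughout: Ifnar1 averaged 81.9 CPM in C2C12 with EO771 and 84.3 CPM in C2C12 alone, 81.2 CPM in MLg with EO771 and 86.1 CPM in MLg alone, and 21.8, 19.7 and 19.2 CPM in EO771 with C2C12, with MLg and alone.

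The protein-coding genes on either side of the cluster were mostly not called in the partner lines. Before Ifit2 lie Fas, Ch25h and Lipa, and after Ifit1 lie Slc16a12, Pank1 and Kif20b. In C2C12 with EO771 against C2C12 alone none of the 5 neighbours tested was called (log2 differences from -0.47 for Fas to 1.20 for Kif20b). In MLg with EO771 against MLg alone, Ch25h, which encodes cholesterol hydroxylase and is itself known as interferon-inducible, was higher (1.40 ± 0.373 CPM and 0.439 ± 0.155 CPM, log2 fold change 1.69, edgeR adjusted p 0.00381) and so was Kif20b, a mitotic kinesin (48.6 ± 7.04 CPM and 36.3 ± 2.02 CPM, log2 fold change 0.44, edgeR adjusted p 0.00817). Kif20b averaged 151 CPM in EO771 with MLg, and 8.30% of that is 12.6 CPM, beside a difference of 12.3 CPM between MLg with EO771 and MLg alone. With partner counts subtracted at the median share, neither was called in MLg (Kif20b 0.15, edgeR adjusted p 0.588, and Ch25h 1.25, edgeR adjusted p 0.0609). Lipa, the lysosomal acid lipase next to Ifit2, differed by -0.03 in C2C12 (edgeR adjusted p 0.958) and 0.21 in MLg (edgeR adjusted p 0.242). In EO771 with C2C12 against EO771 alone, Ch25h (0.66) and Lipa (0.64) were called higher and Kif20b (-0.39) lower. With partner counts subtracted they were 0.67, 0.62 and -0.37 (edgeR adjusted p 0.00830, 0.00168 and 0.0376). Omitting the even-count libraries left 1 library of EO771 with C2C12, which cannot decide these calls. The log2 differences were then 0.85 for Ch25h, 0.39 for Lipa and -0.25 for Kif20b. With MLg none of the neighbours was called. Slc16a12 was too low to test in any line, and Pank1 in EO771.

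Over the 28 libraries, the genes whose log2(CPM + 0.1) ran most like Ifit1 were Ifi44 (Pearson r 0.974), Gbp5 (0.945), Oas2 (0.942), Usp18 (0.942) and Irf9 (0.927), among 12304 protein-coding genes of at least 1 CPM on average. Those most like Ifit2 were Irgm1 (0.980), Irgm2 (0.974), Gm12185 (0.973), Gbp4 (0.971) and Xaf1 (0.971). The 28 points share 3 lines and 7 groups, and so are not independent. Within the family, Ifit3 and Ifit3b were most alike (0.989) and Ifit1 and Ifit2 less so (0.714). Ifi44 shows what the Ifit1 pattern looks like: 41.1 ± 15.5 CPM in C2C12 with EO771 and 0.164 ± 0.0969 CPM in C2C12 alone, 69.0 ± 16.6 CPM in MLg with EO771 and 1.46 ± 0.205 CPM in MLg alone, and 0.301 ± 0.147 CPM in EO771 alone. Irgm1 shows that of Ifit2, with a high level before co-culture: 307 ± 23.0 CPM in MLg with EO771 and 129 ± 5.85 CPM in MLg alone, and 120 ± 19.0 CPM in C2C12 with EO771 and 45.1 ± 8.73 CPM in C2C12 alone.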

How the data were processed

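Raw read counts per Ensembl gene, 1 deposited table per library, were used as the authors deposited them. The submitters' processing notes name STAR 2.7.10a, Subread 2.0.1, featureCounts, fastp and DESeq2 without their roles. Genome build, annotation and strand setting are not given in the sources here. Per the labels' protocols, an RNeasy kit gave the RNA, and a TruSeq stranded mRNA kit the libraries. All 55536 identifiers matched GENCODE M21 (GRCm38), which gave symbols, lengths and coordinates.

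CPM was computed from library totals. Tests used edgeR 4.0.16 (R 4.3.3; quasi-likelihood F test, two-sided, TMM, filterByExpr with minimum count 10 and minimum total 15), with Benjamini-Hochberg adjustment over all genes of a fit and a call at adjusted p under 0.05. There were 5 fits (12 EO771, 8 C2C12, 8 MLg, 16 partner-line and 12 alone libraries) for 9 comparisons. The SE of an edgeR log2 fold change was derived as its size divided by the square root of F. The 95% intervals were built from that SE and the t distribution. Alternatives were DESeq2 1.42.0, other scaling, filters and fits, partner subtraction, and leaving out libraries.

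The tables of EO771 with C2C12 R5-1 and R5-2 are named the other way round from their titles, and the recorded sample was used for each. Libraries of the same R number deviated together in the C2C12 fit only (r 0.37 to 0.63 over 4 pairs), so the number was taken to link those libraries there. C2C12 alone R2-1 and C2C12 with EO771 R6-1 have no such counterpart. The reported fits did not use this link, which entered only as a block in an alternative fit. No 2 replicates agreed within sampling noise (chi-square per degree of freedom of at least 14.7 in 42 pairs). Named genes were all members, up to 3 called genes of highest level per list and comparison, 3 neighbours on either side, and the 5 genes most like Ifit1 and Ifit2. The members and lists were chosen with earlier results of these data known. Not every gene of the lists is reported here by name.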

Additional observations from a re-analysis of the deposited data

Results flagged for a closer look

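In all 4 members tested, co-cultured EO771 differed with its partner: EO771 with C2C12 was lower than EO771 with MLg by a log2 difference of -0.83 for Ifit1, -0.63 for Ifit2, -0.89 for Ifit3 and -1.46 for Ifit3b, each past an edgeR adjusted p of 0.05. Of the 15794 genes tested there, 27.7% were called and 12.7% called lower. With partner counts subtracted at the median share, 0 of the 3 members still tested were called. The partner-specific share was 0.941% in EO771 with C2C12 and 1.49% in EO771 with MLg, and its part in these differences was not tested beyond the subtractions given above.

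In 5 of the 40 groups of values with any spread, 1 library stood apart from the other 3 by Dixon's criterion, which chance alone meets in about 1 of 20 groups. Ifit3 in EO771 with MLg R5-1 was 7.80 CPM, against 4.63 to 4.86 CPM in the others. Ifit3b in MLg with EO771 R7-1 was 68.1 CPM, against 118 to 128 CPM. The other 3 rest on few counts: Ifit1bl1 at 0.0582 CPM in EO771 with C2C12 R3-1, Ifit1bl1 at 0.245 CPM in EO771 with MLg R7-1 and Ifit1bl2 at 0.0561 CPM in EO771 alone R6-2, each with 0 in the rest of its group. In such a group any single nonzero count meets the criterion, so the rate of 1 in 20 does not apply to these 3.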

How the results depend on the processing

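Of the recounts of members called, 101 with 1 library left out and 72 under other alternatives stayed within 1.5 times the count reported, and 3 and 9 moved further. For EO771 with C2C12 against alone (3 called), partner subtraction gave 0, the summed share 0 and a fit of only these groups 1, with Ifit3b filtered out of that fit and Ifit1 no longer called (edgeR adjusted p 0.0544). For EO771 with MLg against alone (4), the summed share gave 1. For EO771 with C2C12 against EO771 with MLg (4), leaving out the even-count libraries gave 1, partner subtraction 0 and the summed share 1. DESeq2 gave 1 for the MLg response minus the C2C12 response (0), and a fit of only EO771 alone and C2C12 alone gave 3 (5), with 2 members filtered out. With 1 library left out, the members called ranged from 2 to 3 for EO771 with C2C12 against alone, 4 to 4 with MLg, 2 to 4 between these groups, 4 to 5 in C2C12, 5 to 6 in MLg, 0 to 1 for the difference of responses, 2 to 4 for MLg alone against C2C12 alone, 4 to 6 for EO771 alone against C2C12 alone and 5 to 5 against MLg alone.

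Signs turned in 3 cases, each near 0: Ifit1 in EO771 with C2C12 at the summed share (-0.0003), and Ifit2 in the difference of responses without the even-count libraries (-0.0003) or without C2C12 with EO771 R5-1 (-0.04, in a range of -0.04 to 0.23 with 1 library left out). With the replicate block (R number), in which C2C12 alone R2-1 and C2C12 with EO771 R6-1 have no counterpart, 4 members were called in C2C12. The block changed no other call there. In the fit of the difference of responses, which holds the same C2C12 libraries, the block gave 0. In the other fits, where the libraries share only a number, it gave 3, 4 and 4 for EO771, 6 in MLg (Ifit1bl1 gained), and 3, 6 and 5 for the lines alone. TMM scaling left 41 of 42 group levels within 1 SD (Ifit2 in C2C12 alone became 26.5 CPM).

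Counts over all genes moved more. Without the even-count libraries they were 1322 (5205 reported) for EO771 with C2C12, 732 (4371) between the co-cultured EO771 groups, 1153 (2472) for MLg and 178 (343) for the difference. Partner subtraction by mean, by name and at the summed share gave 874, 874 and 839 (1515) for EO771 with MLg, 124, 127 and 120 (445) for C2C12, 781, 722 and 777 (2472) for MLg, and 40, 35 and 40 (343) for the difference. DESeq2 gave 816 for C2C12 and 726 for the difference, and all 28 libraries in 1 fit gave 1176 and 549. MLg gave 1627 without MLg alone R6-1 and 1569 without R6-2. The cause of these shifts was not tested. Depth limits Ifit1bl1 and Ifit1bl2 in EO771, at 0 to 10 counts a library.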
